A study of Rattus norvegicus with 4 samples.

Results

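Perivascular macrophages, the macrophages that line the blood vessels of the brain, were 121 of 43903 nuclei kept from rat orbitofrontal cortex. They were chosen by counts of their own RNA: at least 500 genes, at most 5% mitochondrial UMIs, a sum of at least 3 UMIs of Mrc1, F13a1 and Cd163, and a sum of at most 2 UMIs of the neuronal genes Slc17a7, Camk2a, Gad1 and Gad2. A UMI is a tag that marks 1 captured RNA molecule. All rats were wild-type Sprague-Dawley males, 8 weeks old. Those of the METH group received methamphetamine, a stimulant that raises extracellular dopamine, by intraperitoneal injection at 1 mg/kg for 7 days, and those of the saline group received saline for 7 days in the same way. Each group was represented by 2 droplet libraries of 3' ends of nuclear RNA, made from the cortex of 4 animals per group. The labels do not tie animals to libraries, so the spread between the libraries of a group may be partly technical.

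Perivascular macrophages sit in the space between the vessel wall and the brain tissue, where they take up proteins, lipids and pathogens from blood and fluid through scavenger and lectin receptors. They derive from yolk-sac progenitors, as microglia do, and share with them the growth factor receptor Csf1r and the transcription factor Spi1, but they lie outside the tissue proper and do not keep the microglial identity factor Sall1. The mannose receptor Mrc1, the haemoglobin scavenger receptor Cd163 and coagulation factor F13a1 are their usual markers. RNA counts do not show where a nucleus lay, so the position of the chosen nuclei at vessels was not tested. Microglia were taken here as nuclei with at least 3 UMIs of Ikzf1, Dock8 and Inpp5d in sum and at most 1 UMI of the macrophage markers. There were 2181 of them, and 1881 also met the neuronal limit that was set for the macrophages.

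The libraries were uneven. METH replicates 1 and 2 gave 25 and 35 perivascular macrophages among 9774 and 8565 nuclei, and saline replicates 1 and 2 gave 9 and 52 among 17393 and 8171. Their share of all nuclei was 0.256% and 0.409% in the METH libraries, with 95% Clopper-Pearson intervals of 0.166 to 0.377% and 0.285 to 0.568%. In the saline libraries it was 0.0517% and 0.636%, with intervals of 0.0237 to 0.0982% and 0.476 to 0.834%; these intervals cover counting error only. Saline replicate 1 was thus the lowest and saline replicate 2 the highest of the 4, and the METH libraries lay between them. The mean was 0.332% ± 0.108 in METH and 0.344% ± 0.413 in saline libraries (SD, n = 2 each), a difference far smaller than the spread between the saline libraries. Among macrophages and microglia together, the macrophage share was 3.76% and 4.62% in METH replicates 1 and 2, against 3.35% and 8.52% in saline replicates 1 and 2. An exact two-sided permutation test over the libraries gave p = 1 for both shares; with 2 libraries against 2 it cannot go below 0.333.

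**Figure D1:**
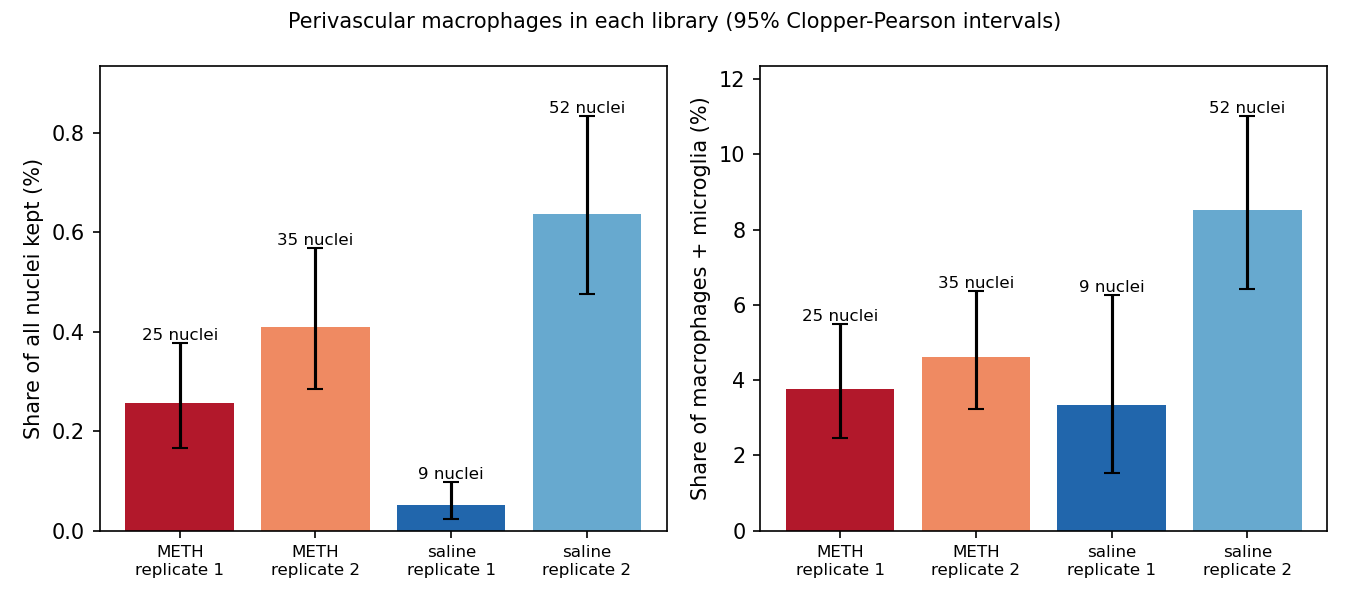
Perivascular macrophages as a percentage of all nuclei kept (left) and of macrophages plus microglia (right) in each library, with the number of macrophages above each bar and 95% Clopper-Pearson intervals as error bars. The saline libraries hold both the lowest and the highest share.

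Macrophages and microglia were both shallower at the median than all nuclei kept. Microglia held a median of 1183.5 and 1327 UMIs in the METH libraries and 1644.5 and 1186.5 in the saline libraries. The macrophages held a median of 1391 and 1061 UMIs in the METH libraries and 1449 and 1024 in the saline libraries, and all nuclei kept held 3120.5 and 3016 in the METH libraries and 1969 and 3741 in the saline libraries. The first saline library had 18958 barcodes, against 8467 to 10275 in the others, and the lowest median depth over all nuclei. With every nucleus thinned to 1500 UMIs and shallower nuclei left out, 14 and 24 macrophages of the METH libraries and 5 and 38 of the saline libraries were left out as too shallow. Among the thinned nuclei, 6 and 8 of the METH libraries and 0 and 9 of the saline libraries met the rule. The thinned shares were 0.0851% and 0.127% in METH replicates 1 and 2, and 0 of 10974 and 0.145% in saline replicates 1 and 2, where a count of 0 allows up to 0.0273% by a limit of 3 counts and 0.0336% by the upper Clopper-Pearson bound. The libraries shared 216 barcodes among nuclei kept; none was a macrophage in more than 1 library, and 1 macrophage barcode was also a kept nucleus of another library.

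The marker threshold had nuclei close to it on both sides. Of the 121 macrophages, 23 stood at exactly 3 marker UMIs, and 25 other nuclei that met every other limit stood at 2. Colec12, a scavenger receptor outside the rule, reached 1432 CPM (summed UMIs scaled to a common library total) in the 23 and 912 CPM in the 25. The endocytic receptor Stab1 reached 292 and 235 CPM in the same nuclei. Nuclei just outside the rule thus carried these genes as well. A further 18 nuclei with 3 marker UMIs failed the neuronal limit.

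The genes of the rule gave the size of the choice itself. Mrc1 reached 1797 CPM in macrophages and 2.46 CPM in microglia, F13a1 1255 and 0.984 CPM, and Cd163 709 and 0.492 CPM. They are given as a description, since they chose both sets. In nuclei marked as excitatory neurons (at least 3 UMIs of Slc17a7 and Camk2a), a UMI of Mrc1 was found in 0.501% at a median depth of 4993 UMIs, against 95.9% of macrophages at a median depth of 1100.

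The label was checked against macrophage markers that the rule did not use. Summed over all 21 of them in the files, the level was 3498 and 4892 CPM in the macrophages of METH replicates 1 and 2, and 2236 and 4579 CPM in those of saline replicates 1 and 2, beside 357 CPM in microglia and 481 CPM in microglia with the neuronal limit. Of 26 such markers listed, 21 were in the files and 12 reached the level that was set for comparison, a mean of at least 50 CPM over macrophages and microglia. A gene was called higher or lower when the pooled log2 ratio of CPM + 20 was at least 1 or at most −1 and had the same sign in each of the 3 libraries with at least 20 macrophages. Over all 4525 genes so compared, 153 (3.38%) were higher and 281 (6.21%) lower in macrophages than in microglia. With the neuronal limit also set on microglia, 106 of 4515 (2.35%) were higher and 52 (1.15%) lower. Of the 12 macrophage markers, 11 were higher and none lower in both comparisons, with median log2 ratios of 2.72 and 2.70, beside medians of 0.08 and 0.01 over all genes compared. The 1 marker not called was Maf, a transcription factor of resident macrophages, at 215 CPM in macrophages and 98.5 CPM in microglia. The other 9 markers in the files were at 0 to 59.8 CPM in macrophages, with Cd209a, Cd209e and Cd209f at 0. A gene can reach the level for comparison through the macrophages alone, so the counts of called genes in this list and in those that follow describe the profile and do not support the label. All of them describe nuclei selected on their own RNA and carry no test.

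Scavenger and endocytic receptors led the profile. Colec12, a collectin that binds oxidised lipids and microbes, stood at 814 and 1110.3 CPM in METH replicates 1 and 2, and 603 and 1487 CPM in saline replicates 1 and 2. It was at 11.0 to 18.6 CPM in the microglia of every library, so the sets did not overlap in any library; the pooled log2 ratio was 5.03 ± 0.32 (SD over the 3 libraries with at least 20 macrophages). Stab1, stabilin-1, a receptor that clears modified lipoproteins and extracellular debris, was at 416 and 531 CPM in METH replicates 1 and 2, and 284 and 457 CPM in saline replicates 1 and 2, and at 0.523 to 6.20 CPM in microglia. Its log2 ratio of 4.38 ± 0.09 was the steadiest among the leading genes. Dab2, an adaptor that carries receptors into clathrin-coated pits, was at 537 and 869 CPM in METH replicates 1 and 2, and 355 and 817 CPM in saline replicates 1 and 2, with a log2 ratio of 4.20 ± 0.24. Clec10a, a lectin for galactose sugars, followed at a log2 ratio of 3.60 ± 0.82, and Lyve1, a hyaluronan receptor, at 2.27 ± 0.71. The neonatal Fc receptor gene Fcgrt, which recycles immunoglobulin G and albumin, had a log2 ratio of 1.57 ± 0.76. Of 10 receptors compared, these 6 were higher in both comparisons and none was lower; Scarb1, Scarb2, Lrp1 and Mrc2 were not called. Macrophages of saline replicate 1, 9 nuclei in all, had the lowest level of Colec12, Stab1, Dab2 and Clec10a.

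The promoters of the 4 named genes with the highest log2 ratio were read from RefSeq on the rat build GRCr8, because these genes lead the difference from microglia. The stretches are the 250 bases before each gene's start, 5′ to 3′ on the gene's strand, and capitals mark a match to GAGGAAG, the core of the sites of the myeloid factor PU.1 (product of Spi1), or to TGCTGAC, a partial site of MAF, on either strand. They lie at chr18:1005537-1005786 (plus strand) for Colec12, chr16:6367360-6367609 (minus) for Stab1, chr2:57272050-57272299 (plus) for Dab2 and chr17:48745147-48745396 (minus) for Aoah.
Colec12: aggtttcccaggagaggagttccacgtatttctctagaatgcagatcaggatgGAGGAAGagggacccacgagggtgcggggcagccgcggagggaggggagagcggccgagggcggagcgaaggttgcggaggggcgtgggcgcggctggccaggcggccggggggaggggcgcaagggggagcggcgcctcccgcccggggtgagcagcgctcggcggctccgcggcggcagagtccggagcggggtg
Stab1: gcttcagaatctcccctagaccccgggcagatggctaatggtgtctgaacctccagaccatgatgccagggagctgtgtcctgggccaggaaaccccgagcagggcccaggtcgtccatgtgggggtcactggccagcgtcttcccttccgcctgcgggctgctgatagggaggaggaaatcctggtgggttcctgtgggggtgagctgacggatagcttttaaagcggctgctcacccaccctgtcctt
Dab2: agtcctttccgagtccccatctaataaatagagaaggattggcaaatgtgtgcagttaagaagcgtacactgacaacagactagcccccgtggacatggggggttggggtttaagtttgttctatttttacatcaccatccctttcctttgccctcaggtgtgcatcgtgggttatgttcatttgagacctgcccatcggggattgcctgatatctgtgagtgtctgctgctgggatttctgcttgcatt
Aoah: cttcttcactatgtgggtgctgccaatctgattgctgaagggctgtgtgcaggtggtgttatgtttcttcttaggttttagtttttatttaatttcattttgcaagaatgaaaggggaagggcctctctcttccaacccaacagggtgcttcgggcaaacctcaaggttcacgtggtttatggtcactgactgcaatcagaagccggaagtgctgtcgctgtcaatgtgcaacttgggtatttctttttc
Of the 20 leading genes, 18 had a promoter in the table. GAGGAAG stood in 2 of these, Colec12 and Selenop, while 10.2% of all 33469 promoters held it, and TGCTGAC stood in none, while 3.53% of all promoters held it. In Colec12 the match lay 197 bases before the start. A match is a run of letters and not a bound site.

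The other leading genes fell into a few known roles. Antigen presentation by MHC class II was represented by Cd74, the invariant chain, and by RT1-Da and RT1-Db1, chains of a rat class II molecule. Cd74 was at 259.7 and 418 CPM in METH replicates 1 and 2, and 35.5 and 185 CPM in saline replicates 1 and 2, against 2.79 to 17.1 CPM in microglia. RT1-Da was at 416 and 338 CPM in METH replicates 1 and 2, and 35.5 and 301 CPM in saline replicates 1 and 2, and RT1-Db1 at 242 and 483 CPM in METH replicates 1 and 2, and 0 and 156 CPM in saline replicates 1 and 2. The 3 genes had log2 ratios of 3.21 ± 0.86, 3.38 ± 0.66 and 3.11 ± 1.17, and were low in the 9 macrophages of saline replicate 1. They were the 3 of 6 genes of that list called higher. Ctss and Lgmn, proteases that prepare antigens, were at 646 and 586 CPM in macrophages and 528 and 454 CPM in microglia and were not called.

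Innate defence and clearance genes were also prominent. Aoah, an enzyme that strips acyl chains from bacterial lipopolysaccharide, was at 433 and 659.7 CPM in METH replicates 1 and 2, and 106 and 457 CPM in saline replicates 1 and 2, against 9.30 to 18.7 CPM in microglia. Vsig4, a receptor for complement fragments, had a log2 ratio of 2.82 ± 0.37 and was at 0 in the microglia of 3 libraries. Folr2, a folate receptor of macrophages, and Ms4a7, a membrane-spanning protein of tissue macrophages, had log2 ratios of 2.62 ± 0.73 and 2.84 ± 0.52. Cybb, the catalytic subunit of the phagocyte NADPH oxidase, was at 175 CPM in macrophages and 14.6 CPM in microglia, with a log2 ratio of 2.50 ± 0.32. The lysosomal protease gene Ctsc and Gpnmb, a glycoprotein of lysosomes, were the 2 of 20 lysosomal genes higher in both comparisons, at log2 ratios of 2.50 ± 0.55 and 2.47 ± 0.77; 1 gene of that list was lower with the neuronal limit.

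Signalling genes among the leaders included Cd4, which rat macrophages are known to carry, at 335 CPM in macrophages and 34.9 CPM in microglia, with a log2 ratio of 2.69 ± 0.20. Ccr1, a receptor for inflammatory chemokines, was at 116 CPM in macrophages and 1.31 CPM in microglia. Vav3, a guanine nucleotide exchange factor, was at 430.4 and 42.1 CPM. Igf1, a growth factor, was at 485 and 177 CPM in METH replicates 1 and 2, and 71.0 and 331 CPM in saline replicates 1 and 2, with a log2 ratio of 2.14 ± 0.72, and Gas6, a ligand of the phagocytic receptor Mertk, was at 191 CPM in macrophages and 67.2 CPM in microglia. Mertk itself was at 853 CPM in macrophages and 854 CPM in microglia and was not called. The semaphorin and VEGF co-receptors Nrp1 and Nrp2 were the other receptors higher in both comparisons, with log2 ratios of 1.68 ± 0.95 and 1.00 ± 0.47. Of 18 receptors compared, 3 were higher (Nrp1, Nrp2 and Ccr1) and none lower. With the neuronal limit on microglia, 19 were compared, the same 3 were higher, and the cytokine receptor subunit Il6st and Cx3cr1 were lower.

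Metal and redox genes completed the list. Heph, the ferroxidase hephaestin, was at 163 CPM in macrophages and 1.80 CPM in microglia, and Selenop, the selenium carrier, at 295 and 18.7 CPM. Blvrb, a biliverdin reductase of haem breakdown, had a log2 ratio of 2.19 ± 0.56, and Ncoa4, a receptor for ferritin breakdown, 1.34 ± 0.17. Of 6 iron and haem genes compared, 3 were higher than in microglia and 2 with the neuronal limit on microglia. The remaining leading genes were Clec2g, a lectin-like gene, at 865 CPM in macrophages and 83.0 CPM in microglia, Snx8, a sorting nexin of endosomes, at 255 and 20.2 CPM, Calr4, of the calreticulin family, at 195 and 13.4 CPM, and Plscr1, a phospholipid scramblase, at 119.6 and 4.26 CPM. Of the 20 leading genes, 18 had a UMI in the macrophages of every library; the exceptions were RT1-Db1 and Plscr1, both at 0 in saline replicate 1.

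**Figure D2:**
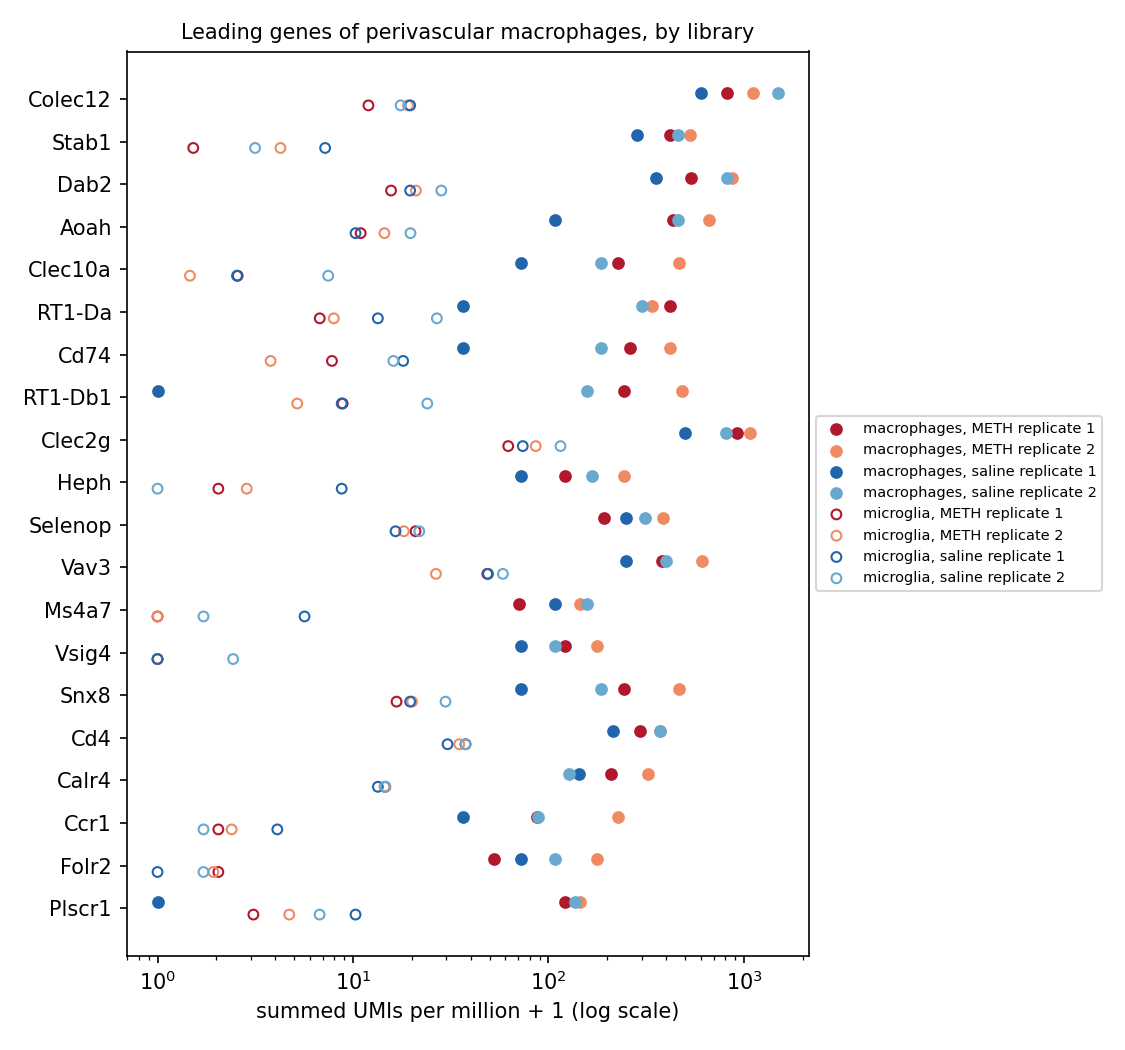
Levels of the 20 leading genes in perivascular macrophages (filled circles) and microglia (open circles) of each library, in CPM plus 1 on a log axis. In the 3 libraries with at least 20 macrophages every filled circle lies to the right of every open circle of the same gene, and saline replicate 1, with 9 macrophages, holds the 2 exceptions at 0.

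Most genes shared by macrophages and microglia were not called. Csf1r was at 546 CPM in macrophages, 308 CPM in microglia and 480.1 CPM in microglia with the neuronal limit, and Spi1 at 95.6, 56.6 and 88.5 CPM. Of 22 shared myeloid genes compared, 4 were higher and none lower, and with the neuronal limit on microglia Cybb alone was called. Runx1, a transcription factor of myeloid cells, was at 675 and 869 CPM in METH replicates 1 and 2, and 319 and 836 CPM in saline replicates 1 and 2, and was higher than in microglia (log2 ratio 1.44 ± 0.08) but not called against microglia with the neuronal limit (0.84). Among 22 macrophage transcription factors compared, Runx1 and Rbpj, the effector of Notch signalling, were higher, Rbpj in both comparisons at 347 CPM in macrophages and 109 CPM in microglia. With the neuronal limit Sall1 was lower. Tfec, a factor of the macrophage lineage, was compared with the neuronal limit alone and was higher there (log2 ratio 1.97).

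Microglial genes were present in the macrophages. None of 13 microglia markers compared was called lower against microglia, and 4 were called against microglia with the neuronal limit. They included the chemokine receptor Cx3cr1 at 219 and 493 CPM in macrophages and limited microglia, Sall1 at 223 and 469 CPM, and the lipid receptor Gpr34 at 75.7 and 207 CPM. P2ry12, the purinergic receptor of resting microglia, was at 43.8 and 101 CPM and was not called. Microglial transcripts were thus low for some genes but not absent.

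These transcripts were higher in a group of nuclei that was itself set apart by microglia markers. Of the 121 macrophages, 46 also met the microglia minimum of 3 UMIs of Ikzf1, Dock8 and Inpp5d (14 and 11 in METH replicates 1 and 2, 3 and 18 in saline replicates 1 and 2), and they were deeper, with a median of 2113 UMIs against 873 in the other 75. Sall1 was at 336 CPM in the 46 and 32.2 CPM in the 75, and Cx3cr1 at 323 and 43.0 CPM. The macrophage genes Colec12, Stab1 and Dab2 went the other way. The macrophage marker Maf did not, at 234 CPM in the 46 and 183 CPM in the 75, nor did the shared gene Csf1r, at 634 and 397 CPM. Colec12 was at 608 CPM in the 46 and 2040.4 CPM in the 75, Stab1 at 279 and 730.2 CPM, and Dab2 at 387 and 1267 CPM. The 75 nuclei held more of these 3 macrophage genes and less of Sall1 and Cx3cr1. The split used microglia markers, and deep nuclei meet a fixed minimum of UMIs more easily. These contrasts therefore describe the split and are not a separate result. Whether a barcode held 1 nucleus with both sets of genes or 2 nuclei was not tested. Scrublet, a doublet caller run on each library, marked 18 of the 121 (14.9%) and 418 of the 2181 microglia (19.2%). The share marked over a whole library was fixed in advance, at 0.8% for every 1000 barcodes with at least 500 genes. METH replicates 1 and 2 kept 9774 and 8565 nuclei, and saline replicates 1 and 2 kept 17393 and 8171. In the same order, 16.0%, 8.57%, 11.1% and 19.2% of macrophages and 22.7%, 18.7%, 9.23% and 20.4% of microglia were marked. Doublets were kept.

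**Figure D3:**
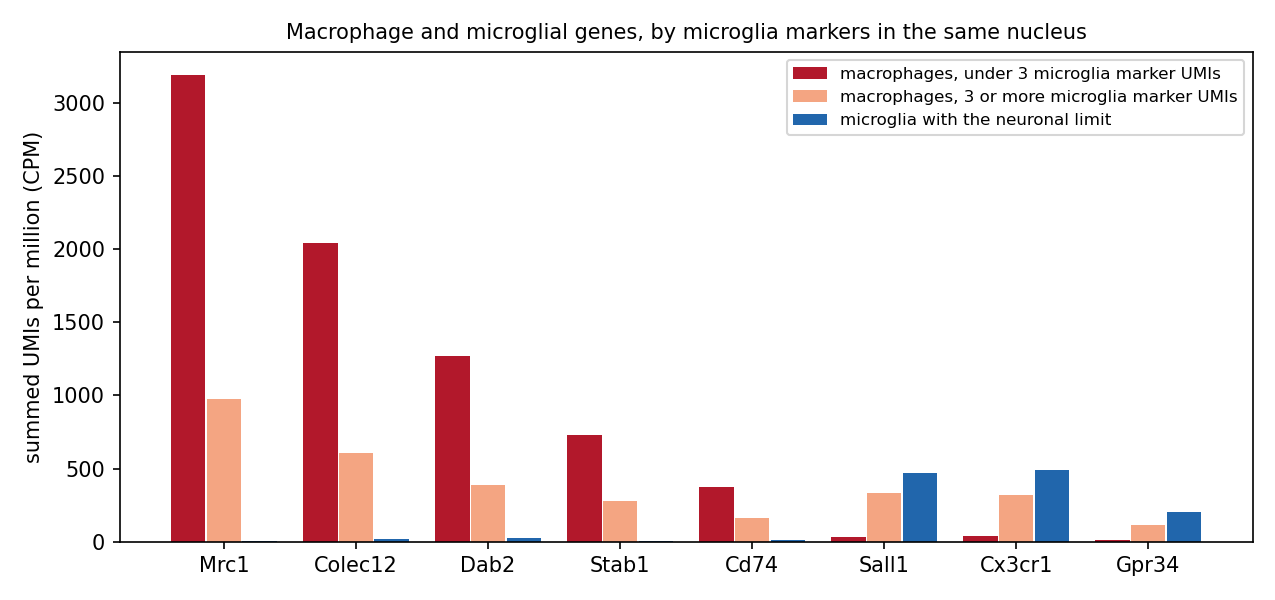
Levels, in CPM, of macrophage genes (left 5) and microglial genes (right 3) in the 75 macrophages with under 3 microglia marker UMIs, the 46 with 3 or more, and 1881 microglia with the neuronal limit. Sall1, Cx3cr1 and Gpr34 are low in the 75 and intermediate in the 46. The macrophages were split by microglia markers, so these levels describe the split.

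Myelin RNA marked nuclei that overlapped with the 46 above. Of the 154 Mog UMIs of all macrophages, the 46 held 117 and the 23 nuclei described next held 148, so these sets shared nuclei. Of the 121 macrophages, 23 (19.0%) held at least 3 UMIs of the defining markers of another cell type, and 22 of these did so through Mog and Mobp of oligodendrocytes; the share among microglia was 428 of 2181 (19.6%). No macrophage met this for endothelium, mural cells or fibroblasts. The 23 nuclei were deep, with a median of 4903 UMIs against 930 in the other 98, and held 126436 of the 250934 UMIs of all macrophages. In the 98, Colec12 was at 1872 CPM, Stab1 at 659 CPM and Cd74 at 482 CPM, and Mog at 48.2 CPM. In the 23 they were at 419, 237, 7.91 and 1171 CPM. The Mog levels follow from the choice, since Mog and Mobp set 22 of the 23 apart. With such nuclei left out of both sets, 351 genes were higher and 485 lower. Only 2 libraries then held at least 20 macrophages, so a call needed the same sign in fewer libraries than in the main comparison. Over 12 oligodendrocyte markers, the summed level was 3535 CPM in macrophages and 3263 CPM in microglia with the neuronal limit, and none was at 0. Of 13 endothelial markers 7 were at 0, and the summed level was 108 CPM; of 9 B cell markers 8 were at 0.

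Neuronal genes separated the comparisons. Most of the 281 genes lower in macrophages than in microglia were no longer called with the neuronal limit on both sets, since the microglia rule had none, and 300 of the 2181 microglia exceeded it. Syt1, the calcium sensor of synaptic vesicles, was at 717 CPM in macrophages, 2349.6 CPM in microglia and 530.1 CPM in microglia with the limit. In both comparisons together, 88 genes were higher and 5 lower. Of the 5, 4 carry a name: the phospholipase Plcb1 (log2 ratio −2.17, or −1.01 with the limit), the homeobox factor Cux2 (−1.86 or −1.17), Lzts1 (−1.47 or −1.41) and the membrane protein Basp1 (−1.01 or −1.06). They were at 27.9 to 83.7 CPM in macrophages, 113 to 304 CPM in microglia and 87.6 to 197 CPM in microglia with the limit. In the nuclei kept that were neither macrophages nor microglia, the 4 genes were at 635, 213, 125 and 164 CPM in the order named. The macrophage levels rest on 7 to 21 UMIs per gene. The SD of the first ratio over the 3 libraries with at least 20 macrophages was 1.42, 0.43, 0.96 and 0.67 in the order named. In saline replicate 1 the log2 ratio of Basp1 was 0.14.

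**Figure D4:**
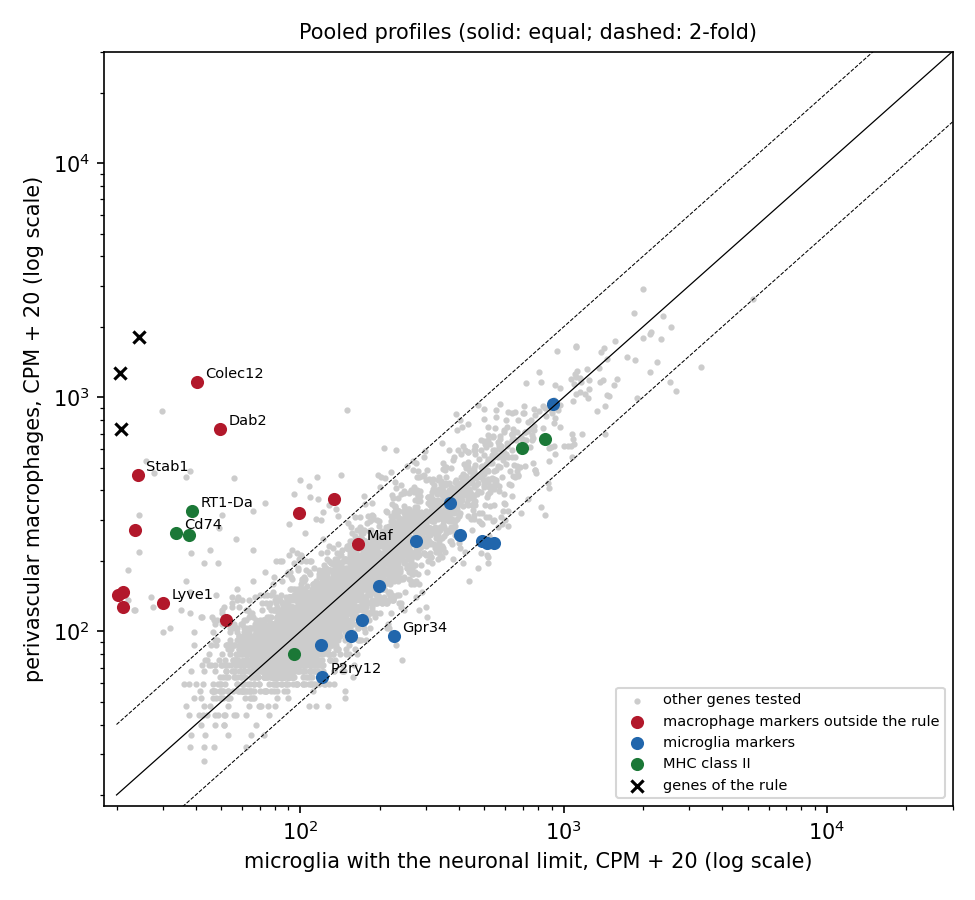
Pooled levels of the genes compared, in perivascular macrophages (vertical) and microglia with the neuronal limit (horizontal), both in CPM + 20 on log axes, with lines at equal levels and at 2-fold. Macrophage markers outside the rule and 3 class II genes lie above the upper dashed line, except Maf, and the other class II genes lie nearer the diagonal. Microglia markers lie from near the diagonal to below the lower dashed line, where Gpr34 and Cx3cr1 lie.

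Other lists held few calls. Of 8 complement genes, C5ar1, the receptor for C5a, was higher in both comparisons (124 CPM in macrophages, 31.8 CPM in microglia), and C1qc in the first alone. Apoe, the lipid carrier, was at 1299 CPM in macrophages and 789 CPM in microglia and was not called; of 13 lipid genes, 1 was higher in the first comparison, and none of 15 was called with the neuronal limit. Of 6 innate sensors, Tlr4 was higher in the first comparison alone. None of 11 matrix genes and none of 7 glucocorticoid genes was called in the first comparison, while Zbtb16, a zinc finger gene induced by glucocorticoids, was called with the neuronal limit. Of 27 monoamine receptors, transporters and enzymes, 2 reached the level for comparison and neither was called. No immediate early gene reached it.

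Macrophages differed among themselves in what was detected. At this depth, 57 of the 121 had UMIs of all 3 rule genes, 49 of 2 and 15 of 1. Lyve1 was found in 23 (19.0%, 95% Clopper-Pearson interval 12.4 to 27.1%) and Cd74 in 27 (22.3%, 15.2 to 30.8%). A UMI of Cd74, RT1-Da or RT1-Db1 was found in 44, and 5 of these also had Lyve1; 18 had Lyve1 without a class II gene, 39 the reverse and 59 neither. In excitatory-marked nuclei, whose median depth was 4993 UMIs, Lyve1 was found in 0.386% and Cd74 in 0.417%. The median depth was 977 UMIs in nuclei with Lyve1 alone and 863 in those with class II alone, and a macrophage without a UMI may still express the gene.

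METH and saline were compared by their values, with no test. For 350 genes with at least 100 UMIs over all macrophages, both METH libraries were above both saline libraries for 59 (16.9%) and below for 35 (10%), with a median log2 difference of 0.10. With 2 libraries against 2, exchangeable libraries would separate in either direction with a probability of 0.333. These counts alone therefore do not show a group difference. Cd163, the haemoglobin scavenger receptor that helped to choose the nuclei, was at 918 and 1159 CPM in METH replicates 1 and 2, against 426 and 399 CPM in saline replicates 1 and 2. The groups did not overlap. The difference of mean log2(CPM + 20) was 1.28. Mrc1 was at 1558 and 2687 CPM in METH macrophages, against 1171 and 1565 CPM in saline macrophages, and F13a1 at 987 and 1867 CPM in METH macrophages, against 709.9 and 1186 CPM in saline macrophages, so both overlapped. These 3 genes chose the nuclei, so their levels are a description of the choice.

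Saline replicate 1 lay low for several macrophage genes. Cst3, cystatin C, a protease inhibitor, was at 1818 and 1191 CPM in METH macrophages, against 568 and 1186 CPM in saline macrophages; METH replicate 2 and saline replicate 2 were almost equal. Apoe was at 1385 and 1674 CPM in METH macrophages, against 461 and 1254 CPM in saline macrophages. Cd74 was at 259.7 and 418 CPM in METH macrophages, against 35.5 and 185 CPM in saline macrophages, where saline replicate 1 rested on 1 UMI. The log2 differences of Cst3, Apoe and Cd74 were 0.83, 0.98 and 1.72, and without saline replicate 1 they were 0.31, 0.28 and 0.77. Without saline replicate 2 they were 1.34, 1.68 and 2.66, and that of Cst3 was 0.52 without METH replicate 1. C1qa, a chain of complement C1q, was at 381 and 289.6 CPM in METH macrophages, against 142 and 292 CPM in saline macrophages. Fkbp5, a glucocorticoid-induced chaperone partner, was at 51.9 and 193 CPM in METH macrophages, against 35.5 and 77.8 CPM in saline macrophages, and was high in METH replicate 2 of microglia as well (182 CPM, against 33.8 to 46.4 CPM in the other libraries). Both C1qa and Fkbp5 overlapped between the groups.

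**Figure D5:**
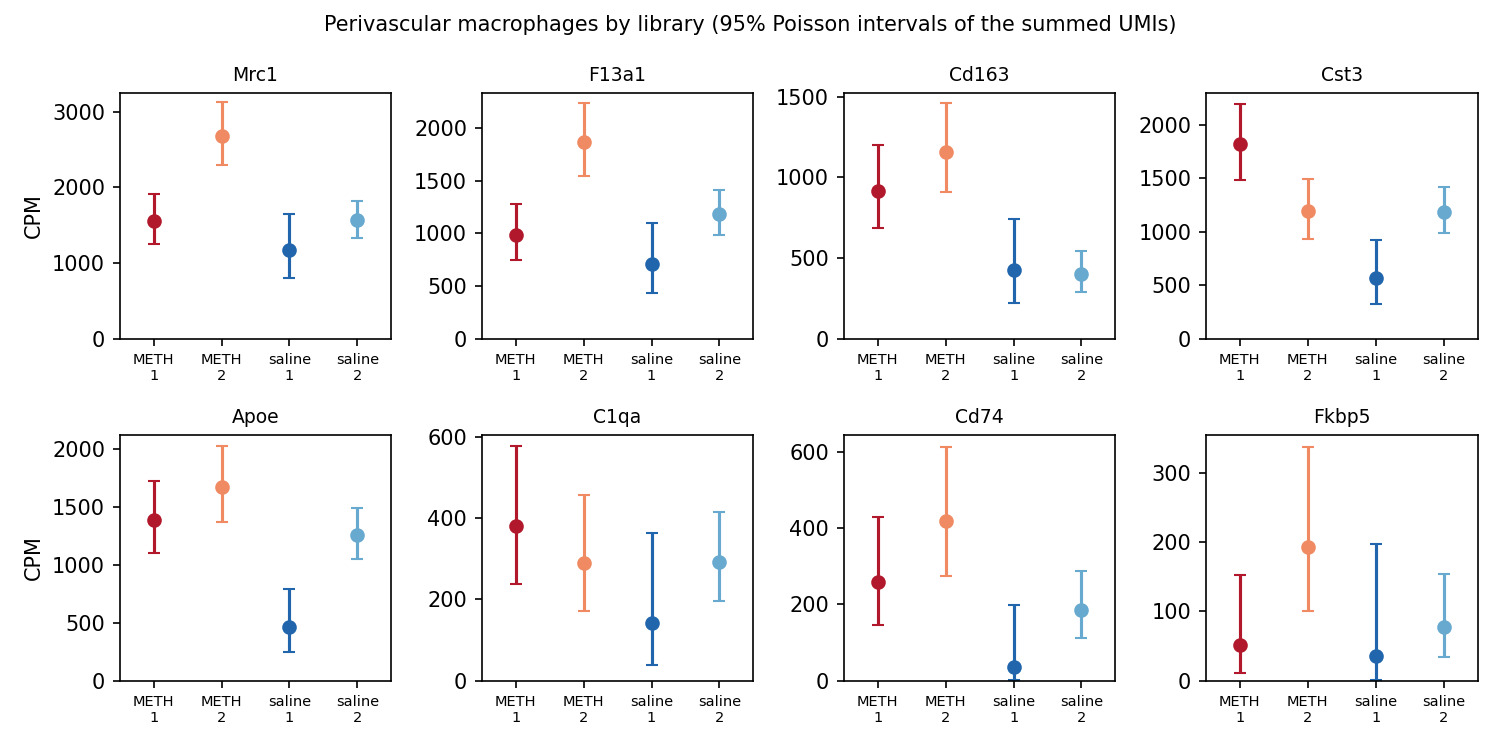
Levels of 8 genes in the perivascular macrophages of each library, in CPM, with 95% Poisson intervals of the summed UMIs as error bars. For Cd163 the METH libraries lie well above the saline libraries; for Cst3, Apoe and Cd74 saline replicate 1 is the lowest point, and the other genes overlap between the groups.

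The largest differences included genes of other cell types. Leaving aside the genes of the rule, the other genes above and placeholder names, the 5 genes with both METH libraries above both saline libraries and the largest log2 difference were Adgrg6, an adhesion receptor (1.35), the myelin gene Mog (1.24), Rab8b, a GTPase of vesicle traffic (1.23), the chromatin reader Phf21a (1.08) and the neuregulin receptor Erbb4 (1.06). Adgrg6 was at 364 and 788 CPM in METH macrophages, against 106 and 359.7 CPM in saline macrophages. Rab8b was at 519 and 998 CPM in METH macrophages, against 177 and 486 CPM in saline macrophages. Those below in METH included the synaptic genes Syt1 (−1.77), Nrxn3 (−1.51) and Opcml (−1.16), and Spred1, an inhibitor of Ras signalling (−0.82). Spred1 was at 519 and 322 CPM in METH macrophages, against 745 and 729 CPM in saline macrophages.

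These differences leaned on single libraries. Without saline replicate 1 the log2 differences of Adgrg6, Rab8b, Phf21a and Erbb4 were 0.55, 0.55, 0.71 and 0.61, and those of Syt1, Nrxn3 and Opcml were −0.90, −0.66 and −0.37. Without METH replicate 2 those of Adgrg6, Rab8b, Erbb4 and Spred1 were 0.81, 0.77, 0.57 and −0.49. Without saline replicate 2 those of Adgrg6, Rab8b, Nrxn3 and Opcml were 2.14, 1.91, −2.35 and −1.95. The nuclei chosen mattered too. In macrophages with no UMI of the neuronal genes of the rule, Syt1, Nrxn3 and Opcml had log2 differences of −0.74, −0.18 and −0.40 and Phf21a 0.69. With doublets removed, Erbb4 had a log2 difference of 0.52 and Mog 2.10, and Mog had 0.58 at 5 or more marker UMIs.

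The summed levels of neuronal and oligodendrocyte markers differed between libraries and did not overlap between the groups. With 2 libraries against 2, this alone does not show a group difference. Summed over 14 neuronal markers, the level in macrophages was 1022 and 1384 CPM in METH replicates 1 and 2, against 5076 and 1643 CPM in saline replicates 1 and 2. Summed over 12 oligodendrocyte markers, it was 3913 and 4522 CPM in METH replicates 1 and 2, against 1917 and 3169 CPM in saline replicates 1 and 2. Saline replicate 1 was the highest for neuronal and the lowest for oligodendrocyte RNA, and the part of either in the differences above was not tested. With nuclei that held markers of another type left out, the log2 difference of Mog was −0.69, and those of Adgrg6, Rab8b and Spred1 were 1.32, 1.22 and −1.22.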

How the data were processed

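The deposited files hold UMI counts per gene and barcode for 4 libraries; Cell Ranger 7.0.0 produced them, per the submitters' processing notes. All 25399 gene identifiers are rat Ensembl identifiers, although those notes list hg38, a human build. With the rat build unknown, coordinates are given only for promoters, from RefSeq (GRCr8). The fewest UMIs in a barcode were 500, and library totals were 37758602 to 44034787 UMIs.

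Nuclei were selected by the limits given above with Python 3.11.15, NumPy 2.4.6, SciPy 1.17.1 and pandas 2.3.3, and Scrublet scores came from Scanpy 1.11.5 (highest scores, up to 0.8% per 1000 barcodes). Counts were summed over nuclei and scaled to CPM; 1 UMI is worth 3.99 CPM in the pooled macrophages. Log2 ratios used 20 CPM added. Nuclei are not replicates, and no test was made beyond an exact permutation test of the 2 shares over libraries; intervals are exact and cover counting error only.

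The named genes were the 20 highest and up to 15 lowest by log2 ratio among genes called in both comparisons, outside the rule and without a placeholder name; 4 qualified as lower. Called members of the lists were named, otherwise the 2 highest, and other members are given as context chosen after their values were seen. For METH and saline, 8 genes were given whatever their values and up to 5 per direction without overlap. A few of these results are not reported here. Members and lists were chosen with earlier results of these data known. Alternatives changed the marker, gene, mitochondrial and neuronal limits, doublets, floor, fold, scaling, added CPM and libraries.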

Additional observations from a re-analysis of the deposited data

Results flagged for a closer look

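Cd74, the invariant chain of MHC class II, had differences of opposite sign in macrophages and microglia, both on few UMIs. The mean log2 difference of METH over saline was 1.72 in macrophages and −0.64 in microglia with the neuronal limit. The levels were 259.7 and 418 CPM in METH macrophages, against 35.5 and 185 CPM in saline macrophages. In microglia they were 13 and 4.78 CPM in METH, against 28.2 and 21.4 CPM in saline. The microglial levels rest on 46 UMIs over 1881 nuclei and are close to or under the 20 CPM added before logs. In macrophages, saline replicate 1 rests on 1 UMI. Every METH library lay above every saline library in macrophages and below in microglia, and the difference between the cell types was not tested. Without saline replicate 1 the macrophage difference was 0.77.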

How the results depend on the processing

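The 153 genes higher and 281 lower in macrophages than in microglia became 351 and 485 with nuclei holding other cell types' markers left out, 38 and 30 at 4-fold, 99 and 187 with 50 CPM added, and 347 and 425 with macrophages under 3 microglia marker UMIs alone, a setting chosen after seeing the data. With the neuronal limit on microglia 52 were lower, and with no level floor 435. Leaving out each library in turn gave 149 to 175 higher and 236 to 333 lower. Only 2 libraries held at least 20 macrophages without METH replicate 1, METH replicate 2 or saline replicate 2. The same held with other cell types' markers left out and under 3 microglia marker UMIs. In these settings a call needed the same sign in fewer libraries, a weaker condition than for 153 and 281. Of the named genes' ratios to microglia under alternatives, 338 moved by less than the spread between libraries, 94 by more, and none reversed. At 1000 genes or more, 45 macrophages were left and no library held 20. There 12 of the 20 leading genes were still called, and all 20 stayed at least 2-fold higher. The log2 ratios of Colec12, Stab1, Dab2 and Aoah fell to 4.15, 3.94, 3.23 and 3.40. The 59 of 350 genes with METH above saline, a count whose alternatives were chosen after seeing the data, became 21 of 188 at 5 marker UMIs, 24 of 168 with no neuronal UMI, 20 of 172 at 1000 genes, 18 of 155 without doublets, 9 of 88 without other types' markers and 10 of 44 under 3 microglia marker UMIs. Of the same genes, the 35 below became 56 of 445 at 2 marker UMIs, 15 with no neuronal UMI, 6 without doublets, 1 without other types' markers and 4 under 3 microglia marker UMIs. Leaving out a library sets 2 libraries against 1, a weaker condition, and leaves 117 to 276 genes, so these counts cannot be set beside 59 and 35; they were 58 to 70 above and 28 to 99 below, with 99 of 276 below without saline replicate 1 and 57 of 202 without METH replicate 1. Fewer genes reached 100 UMIs where nuclei were left out. Mog reversed to −0.69 where its carriers were left out by construction. The difference of METH and saline shares of nuclei was −0.304 percentage points without saline replicate 1 and 0.28 without saline replicate 2; that of the share among macrophages and microglia was −4.34 and 0.843. No paired analysis was possible because the labels tie no animal or batch to a replicate number, and no model was fitted. The number of macrophages, 9 in saline replicate 1, limits every comparison of METH with saline: 1 UMI there is worth 35.5 CPM.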

Other observations

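Genes with placeholder names stood among the highest ratios. AABR07038986.1 was at 866 and 1159 CPM in METH replicates 1 and 2, and 319 and 807 CPM in saline replicates 1 and 2, against 3.66 to 18.6 CPM in microglia, with a log2 ratio of 5.01 ± 0.40 (SD over the 3 libraries with at least 20 macrophages). A UMI of it was found in 94 of the 121 macrophages, more than for Colec12, Dab2 or Cd163. LOC690045 had a log2 ratio of 4.25 ± 0.59 and stood at 454 CPM in macrophages and 4.92 CPM in microglia. In all, 6 of the 88 genes higher in both comparisons carry such names; these 2 were singled out after their values were seen.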
